A study of Mus musculus with 12 samples.

Results

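Itgax, Flt3, Ly75, Cd24a, Itgae, Sirpa, Dpp4 and Naaa, 8 surface and marker genes of conventional dendritic cells, were followed by RNA sequencing in dendritic cells that had grown out of mouse bone marrow in GM-CSF, a cytokine. They were listed by name, with earlier results of these data known, and all 8 had a row among the 11786 genes of the table. The 4 groups, each of 2 libraries, were cells labelled Ythdf1-/- after overnight culture with necrotic B16-OVA, wild-type cells after the same culture, cells labelled Ythdf1-/- alone, and wild-type cells alone. B16-OVA is a melanoma line of the mouse made to carry ovalbumin, and culture with it is called lysate here, after the sample titles. Ythdf1 binds mRNA that carries the methyl mark N6-methyladenosine (m6A) and is called a reader of it. The labels give neither strain nor age of the mice, nor the altered part of Ythdf1, nor whether animals were pooled. They do not state either whether both libraries of a group had their own mouse or culture, and p-values here reflect the spread between libraries only, which may be technical.

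Conventional dendritic cells take up antigen and present it to T cells, and they fall into 2 branches. The cDC1 branch cross-presents antigen to CD8 T cells and carries Itgae, Cd24a, Dpp4, Ly75 and Naaa in many mouse tissues, whereas the cDC2 branch carries Sirpa. Itgax and Flt3 are shared by the branches, and Flt3 signalling drives the growth of their precursors. Cultures made with GM-CSF hold dendritic cells beside macrophage-like cells and granulocytes, and these markers separate the branches less sharply there than in tissues.

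m6A is often placed within GGACT, a common form of its consensus. These letters mark some of the places where the transcript of each member could carry the mark that Ythdf1 reads. Other forms of the consensus were not counted, so a transcript with 0 GGACT could still carry m6A. In 1 GENCODE M21 transcript per gene, Ly75 held 13 GGACT, Itgae 10, Itgax 4, Naaa 4, Flt3 3, Dpp4 3, Sirpa 1 and Cd24a 0. Per kilobase the members ranged from 0 in Cd24a and 0.25 in Sirpa to 1.88 in Ly75 and 2.60 in Itgae, beside a median of 1.05 over 11486 transcripts, of which 92.6% held at least 1. The 25 bases around the GGACT nearest to the stop codon, written as DNA with GGACT in capitals, are shown for the 7 members that had one, because m6A is known to lie often near stop codons.
Ly75: tcctctgagcccGGACTacacaggc
Flt3: cgttgcttcgctGGACTtttctcta
Naaa: ctaagactggaaGGACTgtcccgtt
Itgax: gagtcccgtgctGGACTgctccatc
Sirpa: gagaaacaatatGGACTtttccatc
Dpp4: ttcaaaaaaattGGACTtcattgtt
Itgae: gccctacgagaaGGACTgcaagaac
The windows of Flt3 and Naaa lay 102 and 50 bases past the stop codon. Those of Ly75, Itgax, Dpp4, Itgae and Sirpa lay within the coding sequence, between 172 bases before it in Ly75 and 1222 bases before it in Sirpa. No m6A was measured, and a match is a description of the letters alone.

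The RefSeq table of promoters (GRCm38.p6) held 5 members, Itgax, Flt3, Ly75, Dpp4 and Naaa. Their 250 bases before the transcription start were searched on both strands for GAGGAA, a core of sites for the myeloid factor PU.1, for TGANTCA, the AP-1 site, and for the core of the interferon-stimulated response element (ISRE). No match overlapped another. Dpp4 held 1 GAGGAA and 1 ISRE core, Itgax held 1 TGANTCA, and the windows of Flt3, Ly75 and Naaa held none of the 3. Of 32851 mouse promoter windows of this length, 23.3% held GAGGAA, 6.75% TGANTCA and 2.98% an ISRE core. The 2 windows with matches are shown in gene orientation, with the matches in capitals. That of Itgax is chr7:128129300-128129549 on the plus strand and that of Dpp4 chr2:62412232-62412481 on the minus strand.
Itgax: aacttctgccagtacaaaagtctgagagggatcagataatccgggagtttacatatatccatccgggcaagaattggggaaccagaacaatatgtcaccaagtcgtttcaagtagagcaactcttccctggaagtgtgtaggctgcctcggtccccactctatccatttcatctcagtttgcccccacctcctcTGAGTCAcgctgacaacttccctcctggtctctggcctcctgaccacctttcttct
Dpp4: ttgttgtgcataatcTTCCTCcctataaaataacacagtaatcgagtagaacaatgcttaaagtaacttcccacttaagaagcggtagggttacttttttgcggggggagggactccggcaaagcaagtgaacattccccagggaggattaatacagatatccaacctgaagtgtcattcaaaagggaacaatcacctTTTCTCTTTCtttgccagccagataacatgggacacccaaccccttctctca

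All values below are log2 levels as deposited or differences between them, read as a regularized logarithm, which shrinks the changes of genes with few reads. They are not per length, so levels are compared between groups and not between genes. A change is given with its standard error from limma, fitted across 11785 genes and 2 libraries a group, and was called at a Benjamini-Hochberg adjusted p under 0.05. Ythdf1 itself (Entrez 228994) did not pass this test between the genotype labels, with 9.51 and 9.46 in KO-labelled libraries against 9.72 and 9.58 in wild type with lysate (-0.16 ± 0.081, adjusted p = 0.202), and 9.53 and 9.43 in KO-labelled libraries against 9.58 and 9.43 in wild type alone (-0.030 ± 0.081, adjusted p = 0.85). The genotype groups are therefore called KO-labelled and wild type, after their labels. Library medians lay between 8.53 and 8.55, and the depth of the libraries is unknown because no counts were given. Of the genes that define other cells, the 12 measured neutrophil genes summed to log2 levels of 13.28 to 13.42 in the 4 KO-labelled libraries and 14.33 to 14.51 in the 4 wild-type libraries. The 16 macrophage and monocyte genes summed to 17.28 to 17.34 in KO-labelled and 17.59 to 17.77 in wild-type libraries. Lyz2, at 16.64 to 16.69 in KO-labelled and 16.99 to 17.26 in wild-type libraries, gave most of these sums. The genes listed for erythroid cells, for B cells and for T or NK cells had no row. Markers of dendritic cells were present in every library. Zbtb46, a transcription factor of conventional dendritic cells, lay at 8.86 to 9.61 and the class II gene H2-Ab1 at 14.00 to 14.66. Clec9a, a cDC1 marker, lay at 5.44 to 5.66, at the low end of a table that ran from 3.24 to 17.88. Xcr1 and Cd209a, which define cDC1 and a cDC2-like population, had no row.

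Ly75 and Flt3 were higher, and Naaa, Itgax and Sirpa lower, in KO-labelled than in wild-type cells alone. Of the 8 members 5 passed the test there, 2 higher and 3 lower, where 16.2% of all genes passed, 7.02% higher and 9.23% lower. The members were chosen with earlier results of these data known, so their counts beside these shares are no test of the set. With lysate 3 of 8 passed, Ly75 and Flt3 higher and Naaa lower, where 12.9% of all genes passed, 7.44% higher and 5.45% lower. The median size of the change was 0.29 over the members and 0.11 over all genes alone, and 0.25 and 0.12 with lysate. The medians over all genes include genes with few reads, whose changes are shrunk, so these sizes are not fully comparable. Libraries of the genotype labels did not overlap for 8 of 8 members with lysate, where 60.6% of all genes did not, and for 6 of 8 alone, where 52.7% did not. The transcripts came from bulk samples, in which fewer cells of a type and less RNA per cell cannot be told apart. The summed neutrophil and macrophage levels given above were lower in the same KO-labelled libraries, and their part in these changes was not tested.

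**Figure D1:**
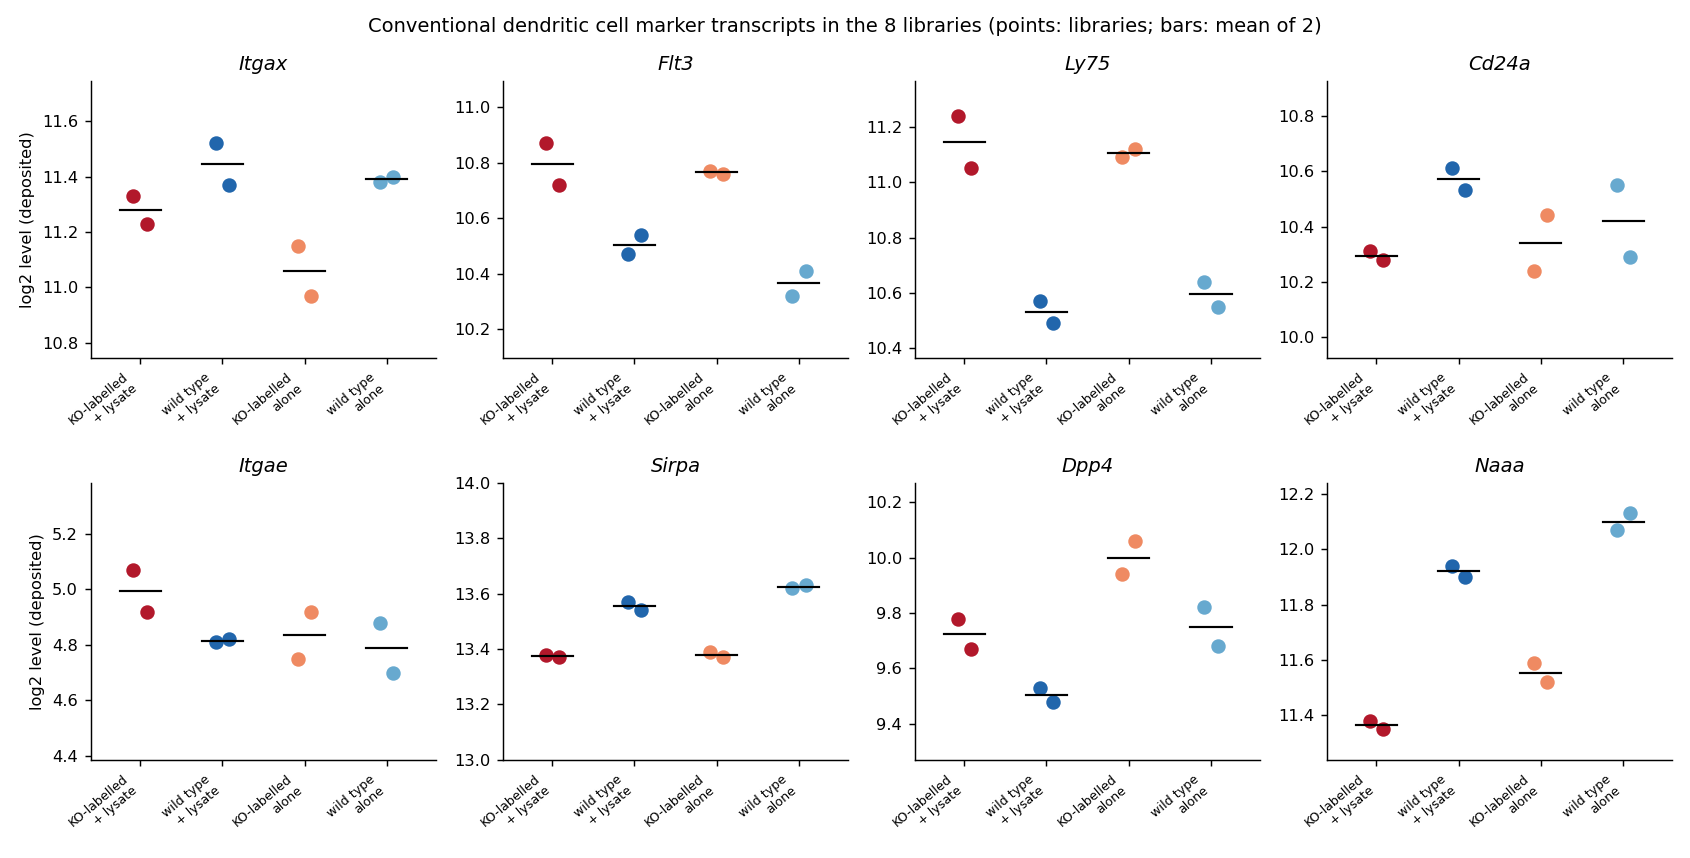
Log2 level of each of the 8 members (vertical axes, each spanning 1 log2 unit) in the 8 libraries (points) of the 4 groups, with bars at the group means of 2 libraries. All 4 KO-labelled libraries lie above all 4 wild-type libraries for Ly75 and Flt3, and below them for Naaa, Sirpa and Itgax.

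Ly75 (Entrez 17076, chromosome 2) encodes DEC-205, an endocytic lectin receptor that carries antigen into dendritic cells. Its log2 level was 11.24 and 11.05 in KO-labelled libraries with lysate, against 10.57 and 10.49 in wild type with lysate. It was 11.09 and 11.12 in KO-labelled libraries alone, against 10.64 and 10.55 in wild type alone. Every KO-labelled library stood above every wild-type one. Ly75 was 1.54-fold higher in KO-labelled cells with lysate (log2 change 0.62 ± 0.076, adjusted p = 0.000336 by limma) and 1.43-fold higher alone (0.51 ± 0.076, adjusted p = 0.00054). These were the 47th and the 107th highest rises of the table. It held its call under every alternative run in both comparisons.

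Flt3 (Entrez 14255, chromosome 5) encodes the receptor tyrosine kinase for FLT3 ligand. Its log2 level was 10.87 and 10.72 in KO-labelled libraries with lysate, against 10.47 and 10.54 in wild type with lysate. Alone, KO-labelled libraries had 10.77 and 10.76 and wild-type libraries 10.32 and 10.41. No KO-labelled library fell within the wild-type range. Flt3 was 1.32-fold higher in KO-labelled cells alone (0.41 ± 0.073, adjusted p = 0.00209) and higher by 0.29 ± 0.073 with lysate (adjusted p = 0.0211). Leaving out KO-labelled lysate replicate 1 (0.21, adjusted p = 0.279), wild-type lysate replicate 1 (adjusted p = 0.113) or wild-type lysate replicate 2 (adjusted p = 0.0594) ended the call with lysate.

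Naaa (Entrez 67111, chromosome 5) encodes a lysosomal amidase that breaks down N-acylethanolamines such as palmitoylethanolamide. It stood at 11.38 and 11.35 in KO-labelled libraries with lysate, against 11.94 and 11.90 in wild type with lysate. The level was 11.59 and 11.52 in KO-labelled libraries alone, against 12.07 and 12.13 in wild type alone. All KO-labelled libraries lay below all wild-type ones. Naaa fell in KO-labelled cells with lysate (-0.55 ± 0.064, adjusted p = 0.000265 by limma), the 59th deepest fall of the table, and alone (-0.54 ± 0.064, adjusted p = 0.000108), the 205th. Both calls held under every alternative run.

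Itgax (Entrez 16411, chromosome 7) encodes CD11c, the integrin alpha chain used most often to define dendritic cells. Its log2 level was 11.33 and 11.23 in KO-labelled libraries with lysate, against 11.52 and 11.37 in wild type with lysate, and 11.15 and 10.97 in KO-labelled libraries alone, against 11.38 and 11.40 in wild type alone. The groups did not overlap in either treatment. Itgax fell in KO-labelled cells alone (-0.33 ± 0.078, adjusted p = 0.0119) and differed by -0.16 ± 0.078 with lysate, which missed the threshold (adjusted p = 0.185). Leaving out replicate 2 of the KO-labelled cells alone (-0.24, adjusted p = 0.0788) or of the wild type alone (adjusted p = 0.0569) ended the call, and either omission left 3 of 8 members called.

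Sirpa (Entrez 19261, chromosome 2) encodes the inhibitory receptor for CD47 on phagocytes. Its values were 13.38 and 13.37 in KO-labelled libraries with lysate, against 13.57 and 13.54 in wild type with lysate, and 13.39 and 13.37 in KO-labelled libraries alone, against 13.62 and 13.63 in wild type alone. The 4 KO-labelled libraries lay close together and below every wild-type library. Sirpa fell in KO-labelled cells alone (-0.24 ± 0.060, adjusted p = 0.0139) and differed by -0.18 with lysate (adjusted p = 0.068). The call was lost without wild-type alone replicate 1 (adjusted p = 0.0624) or 2 (0.0745) and without KO-labelled alone replicate 2 (0.0623). Sirpa has close relatives, Sirpb1a, Sirpb1b and Sirpb1c, between which the counting could have split reads, so its values are uncertain.

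Dpp4, Cd24a and Itgae were called in neither genotype comparison. Dpp4 (Entrez 13482, chromosome 2) encodes a surface peptidase that trims the ends of chemokines and marks cDC1 in mice. It stood at 9.78 and 9.67 in KO-labelled libraries with lysate, against 9.53 and 9.48 in wild type with lysate, and at 9.94 and 10.06 in KO-labelled libraries alone, against 9.82 and 9.68 in wild type alone. Its difference was 0.22 ± 0.080 with lysate (adjusted p = 0.086) and 0.25 ± 0.080 alone (adjusted p = 0.0507), with no overlap in either. The value alone was called under 8 alternatives, among them removal of GC and length trends (0.26, adjusted p = 0.00197), and that with lysate under 4, with an adjusted p of 0.00509 under that removal. Cd24a (Entrez 12484, chromosome 10) encodes a small glycoprotein anchored in the membrane by lipid. It had 10.31 and 10.28 in KO-labelled libraries with lysate, against 10.61 and 10.53 in wild type with lysate, and 10.24 and 10.44 in KO-labelled libraries alone, against 10.55 and 10.29 in wild type alone. The groups overlapped alone (-0.078, adjusted p = 0.643) and not with lysate (-0.28 ± 0.093, adjusted p = 0.0622). Pseudogene copies of Cd24a could have taken reads, so its values are uncertain. Itgae (Entrez 16407, chromosome 11) encodes CD103, the integrin alpha chain that binds E-cadherin with its beta 7 partner. It lay at the low end of the table, whose values ran from 3.24 to 17.88, with 5.07 and 4.92 in KO-labelled libraries with lysate, against 4.81 and 4.82 in wild type with lysate, and 4.75 and 4.92 in KO-labelled libraries alone, against 4.88 and 4.70 in wild type alone. Its difference was 0.19 with lysate (adjusted p = 0.221) and 0.038 alone (adjusted p = 0.839), and changes at so low a level are understated by the logarithm used.

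**Figure D2:**
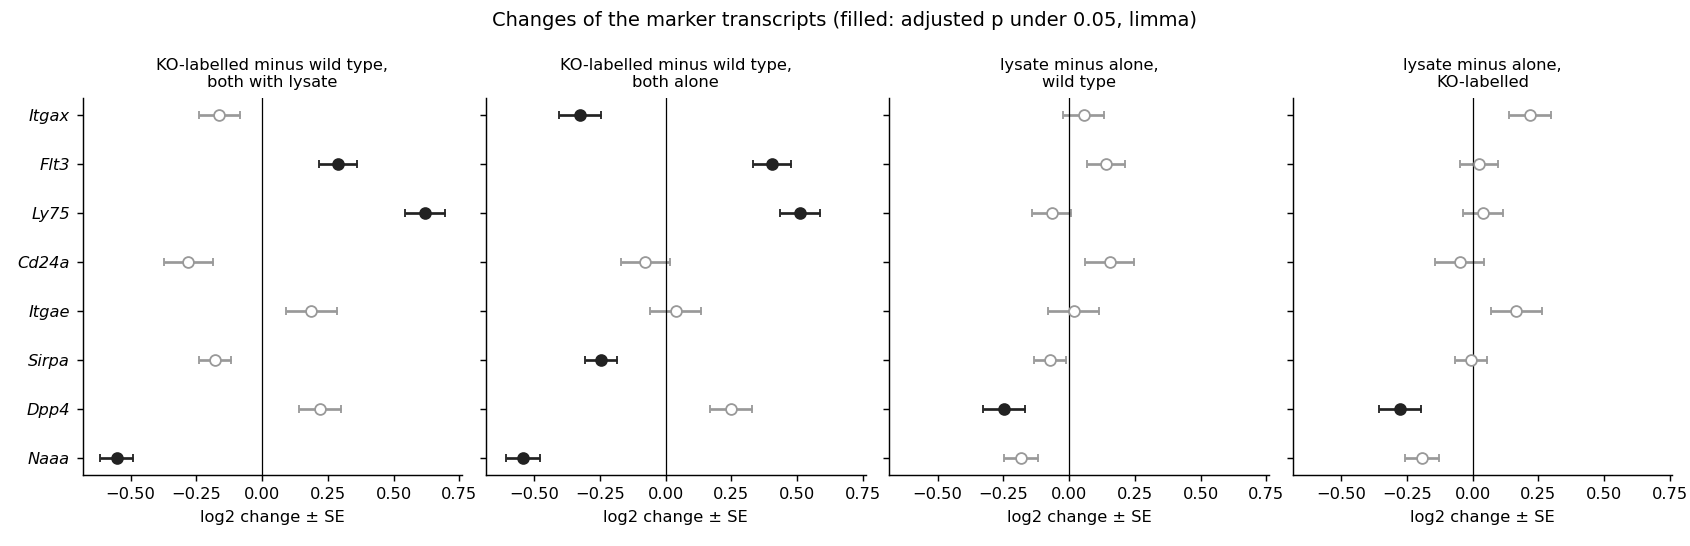
Log2 change of each member (points, horizontal axes) with its standard error (bars) in the comparisons of genotype label within a treatment (the left pair of panels) and of treatment within a genotype label (the right pair). Ly75, Flt3 and Naaa have filled points, an adjusted p under 0.05, in both genotype comparisons, and Dpp4 has them in both treatment comparisons.

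Lysate lowered Dpp4 and no other member by the test. In KO-labelled cells Dpp4 fell by 0.28 on the log2 scale with lysate (SE 0.080, adjusted p = 0.0335), and in wild type by 0.25 (SE 0.080, adjusted p = 0.0414). This was 1 of 8 members in KO-labelled cells, where 15.2% of all genes passed (8.28% higher and 6.92% lower), and 1 of 8 in wild type, where 21.5% passed (10.2% higher and 11.3% lower), shares near those of the table as a whole. The median size of the change was 0.11 over the members in each genotype label, beside 0.12 over all genes in KO-labelled cells and 0.14 in wild type. The shrinkage of genes with few reads limits this comparison too. The Dpp4 call in KO-labelled cells was lost without KO-labelled alone replicate 2 or either KO-labelled lysate library, and that in wild type without any 1 of the 4 wild-type and 2 KO-labelled lysate libraries and under median centring (adjusted p = 0.0571).

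Naaa came next, lower with lysate by values that missed the threshold in KO-labelled cells (-0.19 ± 0.064, adjusted p = 0.0585) and in wild type (-0.18 ± 0.064, adjusted p = 0.0574). Itgax differed by 0.22 ± 0.078 in KO-labelled cells (adjusted p = 0.0772) and by 0.055 in wild type (adjusted p = 0.654). For Ly75 the lysate differences were 0.041 in KO-labelled cells and -0.067 in wild type, and for Flt3 0.024 and 0.14. Those of Sirpa were -0.0052 and -0.071, of Cd24a -0.049 and 0.15, and of Itgae 0.17 and 0.018, none of them called. Libraries with lysate and alone did not overlap for 4 of 8 members in KO-labelled cells, where 59.1% of all genes did not, and for 4 of 8 in wild type, where 60.8% did not.

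The lysate effect of no member was found to depend on the genotype label. The difference of the effects, KO-labelled minus wild type, was called for 0 of 8 members and for 0.11% of all genes, 13 in number (limma), and 0 members had an unadjusted p under 0.05, against 980 of all genes. Its largest sizes were -0.20 ± 0.13 for Cd24a (adjusted p = 0.734) and 0.16 ± 0.11 for Itgax (adjusted p = 0.741). For Dpp4 it was -0.027 ± 0.11 (adjusted p = 0.972) and for Naaa -0.010 ± 0.091 (adjusted p = 0.989). With 2 libraries a group, differences of these sizes were not detectable.

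The groups were ordered by their mean level. Ly75 ran from KO-labelled with lysate to KO-labelled alone, wild type alone and wild type with lysate, from highest to lowest, and only its genotype step was free of overlap. Flt3 ran from KO-labelled with lysate to KO-labelled alone, wild type with lysate and wild type alone, where the first 2 groups overlapped. Naaa ran from wild type alone to wild type with lysate, KO-labelled alone and KO-labelled with lysate, with no neighbours overlapping. Sirpa had that order too, with its KO-labelled groups overlapping. Itgax was highest in wild type with lysate, which overlapped wild type alone, followed by KO-labelled with lysate and KO-labelled alone. Dpp4 was highest in KO-labelled alone, then came wild type alone and KO-labelled with lysate, which overlapped, and wild type with lysate. Neighbouring groups of Cd24a all overlapped, and those of Itgae did so except KO-labelled with lysate above KO-labelled alone.

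Across the 8 libraries Flt3 and Ly75 varied together (Pearson r 0.90) as did Sirpa and Naaa (0.97), and the pairs ran against each other, with r of -0.96 for Flt3 with Sirpa, -0.94 for Flt3 with Naaa, -0.92 for Ly75 with Sirpa and -0.91 for Ly75 with Naaa. Itgax and Dpp4 had r of -0.82. These values describe 8 libraries in 4 groups that share their genotype and treatment labels. Among 4789 genes whose group means ranged over at least 0.3, the closest to Ly75 were Map3k15 (r 0.99), a kinase, and Fchsd2 (0.99), a membrane-trafficking protein. Rab26 and Slc39a14 (0.98 each) were closest to Flt3. Arhgdib (0.996) and Ltf (0.995) were closest to Naaa, and Ltf, lactoferrin, is a neutrophil granule gene. Rac2 and Fgr (0.99 each), a GTPase and a kinase of myeloid cells, were closest to Sirpa, Lyrm4 and Acod1 (0.97 each) to Itgax, and Slco5a1 and Ctnna1 (0.99 each) to Dpp4. Galnt4 (0.96) and Sec62 (0.95) were closest to Cd24a, and Iqcb1 (0.96) and Elmod2 (0.94) to Itgae.

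Genes that work with the members were described next, from lists made with earlier results of these data known. The genotype counts of these lists stand beside shares of all genes. With lysate 7.44% of all genes rose and 5.45% fell, and alone 7.02% rose and 9.23% fell. For Itgax and Itgae, 6 of 10 integrin partners and ligands fell in KO-labelled cells alone and 1 rose, and with lysate 2 fell and 1 rose. Itgb2, the beta 2 chain that pairs with Itgax, had 13.36 and 13.40 in KO-labelled libraries with lysate, against 13.70 and 13.64 in wild type with lysate, and 13.03 and 12.98 in KO-labelled libraries alone, against 13.32 and 13.42 in wild type alone. It fell with lysate (-0.29 ± 0.066, adjusted p = 0.0127) and alone (-0.37 ± 0.066, adjusted p = 0.00182). Of the other chains that pair with Itgb2, Itgal fell with lysate (-0.37) and alone (-0.82), and Itgam alone (-0.42). Icam1, a ligand of beta 2 integrins, rose with lysate by 0.26 and alone by 0.24. Itgb7, the partner of Itgae, fell alone (-0.36, adjusted p = 0.00973). Lysate raised Itgb2 in KO-labelled cells (0.38) and in wild type (0.30), and raised Itgam (0.37) and Cdh1 (0.42), the E-cadherin gene, in KO-labelled cells. It lowered Itgal in wild type (-0.62), and Icam1 in KO-labelled cells (-0.21) and in wild type (-0.23).

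Of 7 genes around Flt3, 2 rose in KO-labelled cells with lysate and 0 fell, and alone 1 rose and 1 fell. Flt3l, its ligand, was called in neither (-0.024 with lysate and -0.082 alone). Csf1r, the related receptor of macrophage growth factor, was at 13.44 and 13.46 in KO-labelled libraries with lysate, against 13.62 and 13.64 in wild type with lysate, and at 13.55 and 13.43 in KO-labelled libraries alone, against 13.88 and 13.99 in wild type alone. It fell alone (-0.45 ± 0.068, adjusted p = 0.000659), opposite in direction to Flt3. Cblb, a ubiquitin ligase, was higher with lysate (0.40) and alone (0.28), and Csf2rb, a chain of the GM-CSF receptor, with lysate (0.25). Lysate lowered Kit, another receptor of this family, in KO-labelled cells (-0.36) and in wild type (-0.35), and lowered Cblb (-0.31) and Csf1r (-0.30) in wild type.

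Around Sirpa, 3 of 9 genes fell in KO-labelled cells with lysate and 5 alone, and 0 rose in either. Tyrobp, an adaptor of activating myeloid receptors, fell with lysate (-0.34 ± 0.066, adjusted p = 0.00551) and alone (-0.33 ± 0.066, adjusted p = 0.00463). Cd47, the ligand of Sirpa, fell alone (-0.27, adjusted p = 0.0197). Sirpb1c (-0.69), Sirpb1a (-0.73) and Sirpb1b (-0.68) fell alone, under the same uncertainty of shared reads, and with lysate Sirpb1c (-0.39) and Sirpb1a (-0.30) did. In KO-labelled cells 0 of these 9 were called with lysate (limma, 2 at an unadjusted p under 0.05), and lysate lowered Sirpb1a (-0.28) in wild type. Of the Cd24 receptors Siglecg, an inhibitory lectin of immune cells, was measured. It rose in KO-labelled cells with lysate (0.49 ± 0.098, adjusted p = 0.00659) and differed by 0.30 alone (adjusted p = 0.0555).

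Of 8 measured genes around Dpp4, 1 rose and 1 fell in KO-labelled cells with lysate, and 1 rose and 3 fell alone. Cxcl10, a chemokine that DPP4 trims, had 8.78 and 8.89 in KO-labelled libraries with lysate, against 9.43 and 9.37 in wild type with lysate, and 8.18 and 8.41 in KO-labelled libraries alone, against 8.99 and 8.96 in wild type alone. It fell with lysate (-0.57 ± 0.089, adjusted p = 0.00145) and alone (-0.68 ± 0.089, adjusted p = 0.000233). Ada, adenosine deaminase, which binds DPP4 in humans, was higher with lysate (0.89) and alone (0.63), and Cxcl9 was lower alone (-0.57). Lysate raised Cxcl10 in KO-labelled cells (0.54) and in wild type (0.43), raised Ada in KO-labelled cells (0.53) and lowered Cxcl9 in wild type (-0.65).

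Of 3 measured relatives and neighbours of Ly75, Cd302 fell in KO-labelled cells in both treatments. Cd302, a lectin gene next to Ly75 on chromosome 2, had 8.95 and 8.91 in KO-labelled libraries with lysate, against 9.33 and 9.43 in wild type with lysate, and 8.91 and 8.98 in KO-labelled libraries alone, against 9.51 and 9.45 in wild type alone. Its change was -0.45 ± 0.075 with lysate (adjusted p = 0.00214) and -0.53 ± 0.075 alone (adjusted p = 0.000392), opposite in direction to Ly75. In humans, transcripts that join these genes are known, and reads in shared exons could not be assigned with certainty. Mrc1, the mannose receptor, rose with lysate in KO-labelled cells (0.55) and in wild type (0.86), and Mrc2 fell (-0.30 and -0.69). Around Naaa, 1 of 5 measured genes fell in KO-labelled cells with lysate and 3 alone, and 0 rose. Asah1, the lysosomal acid ceramidase and a relative of Naaa, fell with lysate (-0.39 ± 0.081, adjusted p = 0.00827) and alone (-0.29 ± 0.081, adjusted p = 0.0272), and Gde1 (-0.25) and Asah2 (-0.42) fell alone. Lysate raised Asah2 in KO-labelled cells (0.53).

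**Figure D3:**
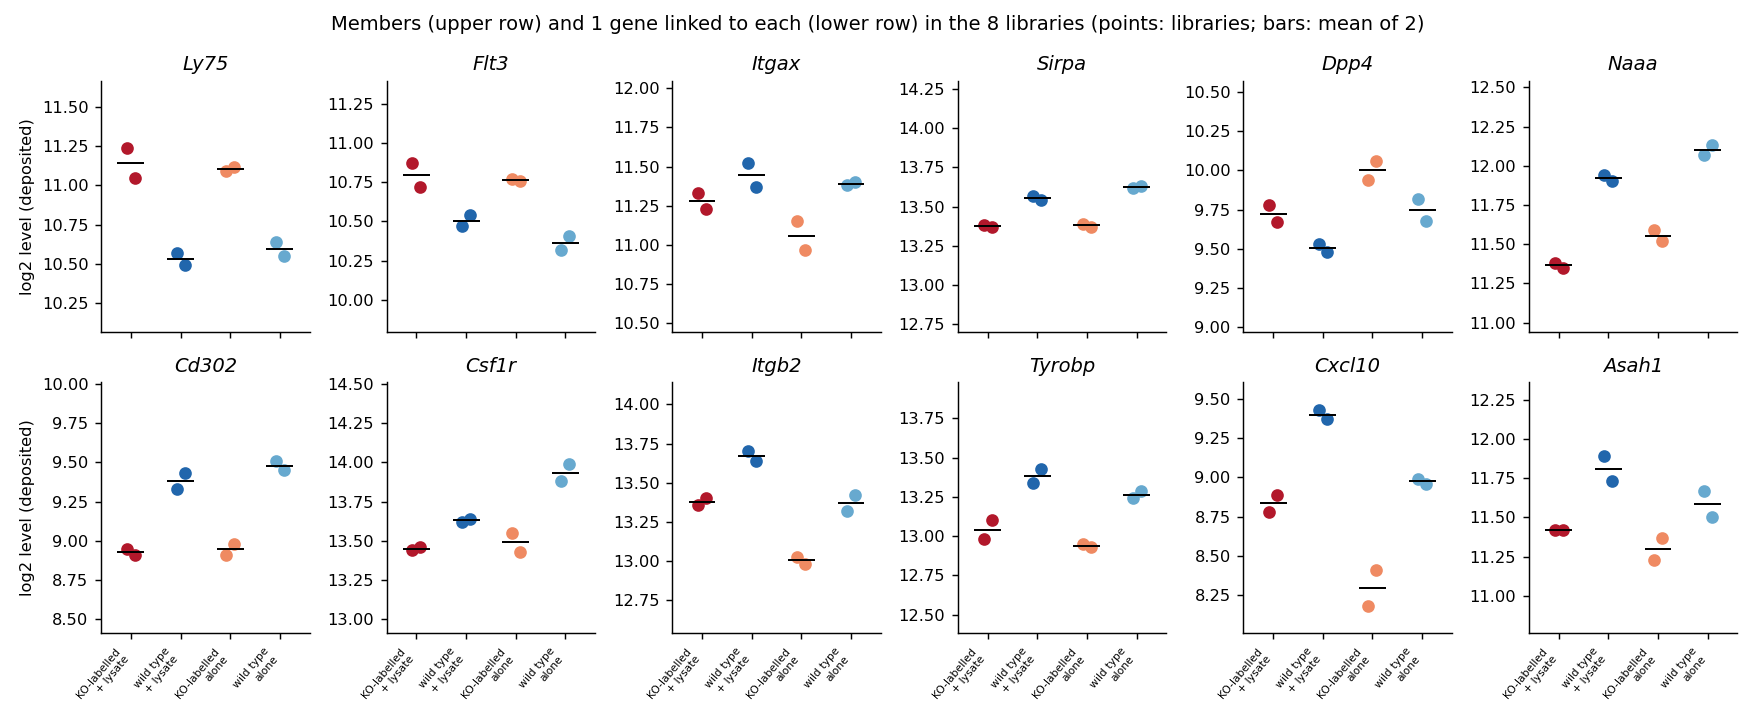
Log2 level of 6 members (upper row) and of 1 gene linked to each (lower row, chosen among those called in at least 1 genotype comparison) in the 8 libraries (points) of the 4 groups, with bars at group means of the log2 level; all vertical axes span the same range. Cd302 is lower in KO-labelled libraries where Ly75 is higher, and Itgb2 and Asah1 are lower where Itgax and Naaa are lower.

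Further genes of conventional dendritic cells moved in both directions between the genotype labels. Of 21 genes associated with conventional dendritic cells, 7 rose in KO-labelled cells with lysate and 0 fell, and 6 rose and 2 fell alone. Of all genes, 7.44% rose and 5.45% fell with lysate, and 7.02% rose and 9.23% fell alone. The cDC1 and cDC2 counts below stand beside the same shares. Adam19 (0.58), a metalloprotease, Runx3 (0.59), a transcription factor, and Nectin1 (0.56), an adhesion molecule, led with lysate. Hmgn3 (0.74), a nucleosome-binding protein, Adam19 (0.43) and Zbtb46 (0.42 ± 0.078, adjusted p = 0.00259) led alone. Runx3 (0.36) and Nectin1 (0.32) also rose alone, and Hmgn3 (0.43) and Zbtb46 (0.41) with lysate. Of 14 measured cDC1 genes 3 rose and 1 fell with lysate, and 3 rose and 2 fell alone. Batf3, a factor required for cDC1, rose by 0.73 with lysate and 0.84 alone, and Irf8, its partner, by 0.45 and 0.34. Nfil3, a factor that acts before them, rose with lysate (0.31) and alone (0.22). Wdfy4, needed for cross-presentation, fell alone (-0.49), and Clec9a, a cDC1 marker, was called in neither (0.028 with lysate and -0.035 alone). Ppt1 fell with lysate (-0.36) and alone (-0.25). Of 11 measured cDC2 genes 3 rose and 3 fell with lysate. Those that rose were Irf4 (0.45) and Relb (0.47), both transcription factors, and Esam (0.36). Those that fell were the lectin Mgl2 (-0.50), Clec12a (-0.40) and Clec10a (-0.28). Alone 3 rose, Irf4 (0.34), Relb (0.43) and Esam (0.59), and 5 fell. These 5 were Cx3cr1 (-0.76), the fractalkine receptor, Notch2 (-0.43), Klf4 (-0.46), Clec12a (-0.44) and Clec4a4 (-0.33).

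With lysate, 9 of 21 conventional dendritic cell genes fell and 1 rose in KO-labelled cells, and 10 fell and 0 rose in wild type. Of all genes, 6.92% fell and 8.28% rose in KO-labelled cells, and 11.3% fell and 10.2% rose in wild type. The class II genes H2-Eb1 (-0.61 and -0.60) and H2-Ab1 (-0.54 in each) fell in both labels. So did Cd74 (-0.51 in KO-labelled cells and -0.43 in wild type) and Adam19 (-0.31 and -0.46). Of the cDC1 genes 3 rose and 2 fell in KO-labelled cells, and 2 rose and 3 fell in wild type. Rab7b, of the endosome, rose by 0.45 in KO-labelled cells and 0.48 in wild type, Tlr3, the receptor for double-stranded RNA, by 0.49 and 0.45, and Nfil3 fell (-0.25 and -0.34). Of the cDC2 genes 4 fell and 0 rose in KO-labelled cells, and 6 fell and 1 rose in wild type. Clec12a, an inhibitory lectin (-0.91 and -0.94), and Irf4 (-0.37 and -0.48) fell in both, with Esam (-0.42) in KO-labelled cells and Cx3cr1 (-0.84) in wild type.

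**Figure D4:**
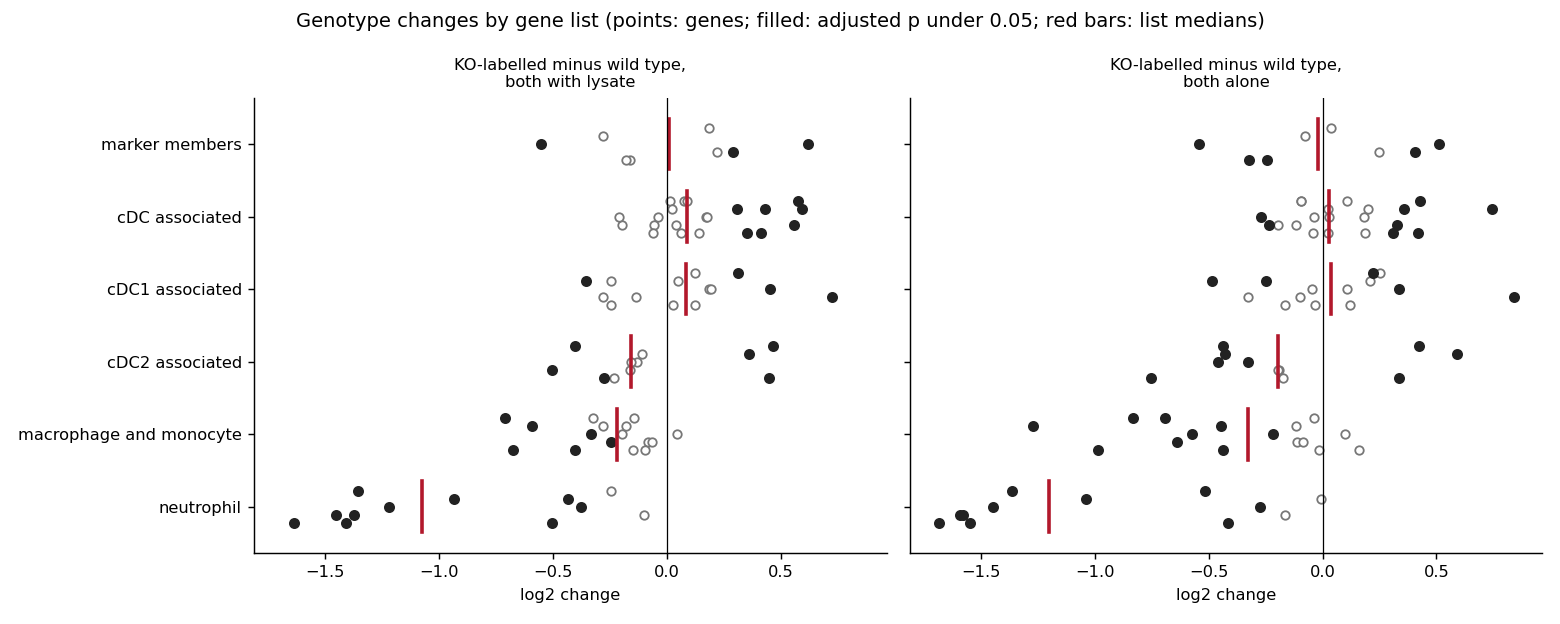
Log2 change between genotype labels (horizontal axes), with lysate (left) and alone (right), of each gene (points) in the 8 members, the conventional dendritic cell lists and the lists of macrophages and neutrophils; filled points have an adjusted p under 0.05 and red bars are list medians. The neutrophil medians, -1.08 with lysate and -1.20 alone, lie lowest.

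Markers of other cells moved with the same labels. Of 12 measured neutrophil genes 10 fell and 0 rose in KO-labelled cells with lysate (median -1.08) and 10 fell and 0 rose alone (median -1.20), led by Ngp (-1.64 and -1.55), Ltf (-1.35 and -1.36) and Retnlg (-1.22 and -1.45). Ly6g, which defines neutrophils, had no row. Of 16 macrophage and monocyte genes 6 fell with lysate and 9 alone, and 0 rose, with Ly6c2 (-0.59 and -1.27), Marco (-0.71 and -0.83) and Plac8 (-0.67 and -0.99). Of 6 measured genes of plasmacytoid dendritic cells, 0 were called by limma in KO-labelled cells with lysate (0 at an unadjusted p under 0.05) and 0 alone (0), and Siglech had no row. Hdc, of 3 measured genes of mast cells and basophils, fell with lysate (-0.37) and alone (-0.68), and Gata2 rose with lysate (0.39). The 6 measured melanocyte genes all rose with lysate in both labels, to summed log2 levels of 16.65 to 16.68 with lysate against 16.04 to 16.10 alone in KO-labelled cells, and 16.84 to 16.85 against 16.15 to 16.19 in wild type. Gpnmb, which macrophages also make, gave most of these sums. Dct, which defines pigment cells, had 6.20 and 6.13 in KO-labelled libraries with lysate against 4.87 and 4.84 alone, and 5.80 and 5.95 in wild type with lysate against 4.75 and 4.75 alone. Their part in the lysate change of Dpp4 was not tested.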

How the data were processed

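RNA from purified dendritic cells was sequenced in 8 libraries with a stranded mRNA kit, per the labels' protocols. The 4 immunoprecipitation samples of the series were not analysed here. The deposited log2 values, 1 per Entrez gene and library, were read as made by the authors with the regularized logarithm of DESeq2, an inference from the table's name and the submitters' processing notes, which also name STAR, deepTools and mm9. The sources used here do not state how reads were counted, with which strand setting, or which genes were kept. No counts were given, so depth is unknown and no counting error can be stated.

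Symbols came from the GRCm38.p6 annotation (42 identifiers had none), whose coordinates were used only for sequences and for which genes lie next to each other. Genes with a largest group mean of at least 4 were tested (11785 of 11786) with limma 3.58.1 in R 4.3.3 (lmFit on group means, eBayes with a mean-variance trend), two-sided, in 1 fit of all 8 libraries with 4 residual degrees of freedom and Benjamini-Hochberg adjustment over all genes. Adjusted p-values are from this fit or, where an alternative is named, from a limma fit altered in that way. The fit was also run on simulated data with independent errors. Those lack the correlated deviations given below, so that run cannot vouch for the p-values here. Figures were drawn with Python 3.11.15. The genes named were the 8 members, up to 3 called genes with the smallest p in each list and comparison, the 2 genes most correlated with each member, Ythdf1, and defining markers of other cells. Cd47, Itgb7, Flt3l, Clec9a, Ppt1, Clec10a, Clec4a4, Lyz2, Xcr1, Cd209a and the genes next to the members were named beyond this rule, after their values were seen. Members and lists were chosen with earlier results of these data known. Replicate numbers came from the titles. Deviations of same-numbered libraries correlated between -0.61, for wild type alone with KO-labelled alone, and 0.26, so same-numbered libraries were not taken as pairs. The value of -0.61 means that those 2 groups deviated in opposite directions. Alternatives were a replicate block, other filters, scalings, variance models and thresholds, a fit of only the groups compared, removal of GC and length trends, and leaving out each library.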

Additional observations from a re-analysis of the deposited data

How the results depend on the processing

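Over all members, comparisons and alternatives, 707 of 795 values kept their direction and their side of the threshold, 36 gained a call, 26 lost a call and 26 changed sign. Many of these values could not change sign. Other thresholds, filters and variance models, the replicate block and omission of a library outside the comparison leave the log2 change as it was. Ly75 and Naaa kept their calls throughout in both genotype comparisons, with changes of 0.53 to 0.71 and -0.57 to -0.54 with lysate and 0.47 to 0.56 and -0.58 to -0.51 alone when single libraries were left out. Of the 8 members, 5 were called between labels alone, 3 at a threshold of 0.01, 3 to 6 without single libraries, and 6 with the filter at 6, a robust variance model, GC and length trends removed (with or without the block) or a threshold of 0.1, where Dpp4 was gained. With lysate 3 were called, 5 when only the groups compared were fitted, 7 after removal of GC and length trends (6 with the replicate block added), 6 at a threshold of 0.1, and 2 to 4 without single libraries. The members gained in these were Cd24a, Dpp4, Sirpa and, with trends removed, Itgax (-0.20, adjusted p = 0.0231, and 0.0137 with the block). For lysate in wild type the 1 call became 0 under the replicate block, median centring, no mean-variance trend or a threshold of 0.01, 2 at 0.1, 3 after removal of GC and length trends (2 with the block), and 0 or 1 without single libraries. In KO-labelled cells the 1 call became 0 under the replicate block (Dpp4 adjusted p = 0.0572) or a threshold of 0.01, 2 under quantile normalization, 3 at 0.1, 3 after removal of GC and length trends with or without the block, and 0 to 2 without single libraries. The block gave Dpp4 in wild type an adjusted p of 0.0664. The difference of the lysate effects was called for 0 members under every alternative. A crossed pairing set replicate 1 of each label alone beside replicate 2 of the other, and was chosen after the correlation of -0.61 was seen. In a fit of those groups with this pairing, 6 members and 4610 genes were called between labels alone.

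Signs changed for values near 0 that were not called. In the KO-labelled lysate comparison, Sirpa (-0.0052) became 0.00025 with median centring and 0.043 with quantile normalization. With GC and length trends removed, with or without the block, Sirpa became 0.011 and Ly75 (0.041) became -0.024. The lysate effect difference of Naaa (-0.010) likewise became 0.026. Without single libraries, Cd24a and Itgae ranged from -0.21 to 0.056 and -0.052 to 0.13 between labels alone, Itgax and Itgae from -0.016 to 0.13 and -0.072 to 0.11 for lysate in wild type, Flt3, Ly75, Cd24a and Sirpa from -0.052 to 0.10, -0.050 to 0.13, -0.15 to 0.050 and -0.013 to 0.0030 for lysate in KO-labelled cells, and Dpp4 and Naaa from -0.10 to 0.046 and -0.046 to 0.026 for the effect difference between labels. The cause was not tested. Over all genes, calls between labels alone (1915) were 1196 for only the groups compared, 3189 with trends removed (3037 with the block), 956 at 0.01 and 1174 to 1865 without single libraries. Between labels with lysate (1519) they were 2688 (2453), 526 at 0.01, 2427 at 0.1 and 193 to 2057. For lysate they were 2534 in wild type, with 1142 at 0.01 and 1031 to 3152 without single libraries, and 1792 in KO-labelled cells, with 2996 (2777), 759 and 564 to 2275. The difference of effects (13) gave 1 under the block, with no trend or at 0.01, 8 with the filter at 6, which also removed Itgae, 119 (76) with GC and length trends removed, 21 at 0.1 and 0 to 32 without single libraries. A group reduced to 1 library took its spread from the remaining groups. Without counts the depth sets no stated limit, and low levels such as Itgae are understated.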

Other observations

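Genes next to the members in the genome were compared after the values of Itgam and Cd302 had been seen. Next to Itgax, Itgam differed between KO-labelled and wild-type cells by -0.17 with lysate (adjusted p = 0.0821) and -0.42 alone (adjusted p = 0.000533 by limma), and Itgad by -0.12 and -0.22, called in neither. Beside Flt3, Pan3, which trims poly(A) tails with its partner, differed by 0.19 with lysate and 0.052 alone. Ppef2 (-0.022 and -0.14) and Sdad1 (-0.042 and -0.16), the neighbours of Naaa, were not called, nor were Ncbp3 and Haspin beside Itgae or Mtres1 and Qrsl1 beside Cd24a. Of the 10 neighbours measured, Itgam and Cd302 were the ones called alone, and Cd302 with lysate. Over all genes 16.2% were called alone and 12.9% with lysate.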
